A study of Mus musculus with 36 samples.

Results

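Murine keratinocytes that lack functional PKP4 (PKP4-KO) and had been kept in high calcium medium (HCM) were compared after 72 h and after 24 h of culture. PKP4, or plakophilin 4, is an armadillo-repeat protein of cell-cell junctions. The members were the 3 PKP4-KO HCM libraries taken as 72 h, with HD in their titles, and the 3 taken as 24 h, with LD. The study's methods name the 2 times but do not explain HD and LD. The members were chosen by genotype, medium and time, and they made up 6 of the 36 libraries of the series. The other 30 libraries came from PKP4-KO cells in low calcium medium (LCM), and from wild-type cells (WT) and PKP4-KO cells carrying GFP-tagged PKP4 (Rescue) in both media, with 3 libraries at each of the same 2 times.

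Per the study's methods, primary keratinocytes were isolated from newborn pups, either Pkp4+/+ or Pkp4-/-, on a C57BL/6J background. The Pkp4-/- allele lacks an exon called critical, and its lacZ reporter had been bred out. All 6 libraries therefore carry the same deletion, and the comparison between them is one of HD against LD, taken as culture time. Rescue cells additionally carry human PKP4 tagged with EGFP from a lentiviral vector, and HCM is the low calcium medium with calcium added. The labels do not say whether the 3 libraries of a group came from separate pups or cultures. Every p-value therefore measures only the spread between libraries of the same group, which may be technical. In the model used for the time effects that spread was estimated jointly over all 36 libraries, not from the compared groups alone. In these bulk samples, fewer cells of a type and less RNA per cell cannot be told apart.

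Calcium is the usual switch for keratinocytes in culture. In low calcium they keep the features of basal cells, which divide and adhere to the basement membrane, and in high calcium they assemble junctions, stop dividing and pass through the programs of the spinous, granular and cornified layers. The late programs supply keratins of suprabasal cells, proteins that transglutaminases link into the cornified envelope, enzymes that make the lipids between corneocytes, and the proteases and inhibitors that time their shedding.

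The 6 libraries held 13794211 to 20732407 counts assigned to genes, within the 13602728 to 22467187 of all 36. At 24 h, library 3 stood apart: it differed from libraries 1 and 2 by a chi-square per gene of 133.9 and 182.2, where libraries 1 and 2 differed by 38.2 and the pairs at 72 h by 12.6 to 16.4. Counts without library 3 are therefore given beside each functional list. The normalization factors (TMM, which scale each library on the genes that change least) were 0.481 to 0.546 at 72 h, against 0.982 to 1.15 at 24 h and 0.705 to 1.39 in the 30 other libraries. A given share of counts thus gave a higher scaled value at 72 h. All levels below are counts per 1000000 counts of the TMM-scaled library (CPM), and changes are log2 fold changes of 72 h over 24 h with their standard error (SE), tested with edgeR's quasi-likelihood test. A gene was called, and is said to have risen or fallen, where its Benjamini-Hochberg adjusted p over 15114 tested genes was below 0.05.

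The level of a gene also moved with the length of its exons. For this, the log level relative to the gene's own mean over all 36 libraries was correlated with length across genes. The Spearman correlation of this relative level and length was -0.492 to -0.468 in the 3 libraries at 72 h. It was 0.0788, 0.178 and -0.225 in libraries 1, 2 and 3 at 24 h. The median log2 fold change was 1.34 in the sixth of genes with the shortest exons (median 762 bp) and -0.77 in the sixth with the longest (median 9940 bp). In the shortest sixth 41.2% of genes rose and 4.49% fell, and in the longest 9.45% rose and 53.7% fell. The correlation of log2 fold change and length across genes was -0.439 in PKP4-KO HCM, -0.31 in PKP4-KO LCM, -0.307 in WT HCM and 0.191 in Rescue HCM. Each list below is therefore also given with a length offset, which subtracts each library's trend of relative level on length. The part of length, RNA quality or library preparation in any single result was not tested.

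**Figure D1:**
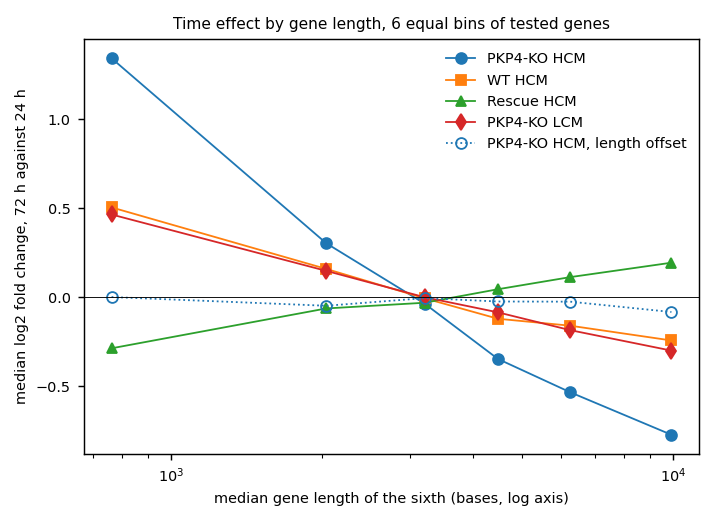
Median log2 fold change of 72 h over 24 h (y axis) in 6 equal bins of genes by exon length in bp (x axis) for PKP4-KO, WT and Rescue cells in HCM and PKP4-KO cells in LCM, with PKP4-KO HCM after the length offset as a further line. The PKP4-KO HCM line falls from 1.34 to -0.77 and is near 0 in every bin after the offset, and the Rescue line runs the other way.

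Of the 15114 tested genes, 8427 (55.8%) were called in PKP4-KO HCM, 3677 (24.3%) higher and 4750 (31.4%) lower at 72 h. The 3 libraries at 72 h did not overlap the 3 at 24 h for 9561 genes (63.3%). With the length offset 7798 genes (51.6%) were called, 3770 (24.9%) higher and 4028 (26.7%) lower. The median log2 fold change over all tested genes was -0.10 with TMM and -1.16 without it, so that without TMM the same data gave 1315 genes higher and 9139 lower. Every direction below is relative to the median gene, and where a list median or a called gene changed sign without TMM this is said beside it. With 55.8% of all genes called, a list's count is read against these shares.

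Pkp4 itself (ENSMUSG00000026991, GRCm39 chromosome 2, 58991088 to 59185552, forward strand) was at 9.65, 8.24 and 8.42 CPM at 24 h and at 8.26, 6.396 and 7.15 CPM at 72 h, and the groups overlapped. The log2 fold change of -0.27 ± 0.17 was not called (adjusted p = 0.179), and an exact permutation test of the ratio of 0.829 gave a two-sided p of 0.2, where 3 against 3 can reach no less than 0.1. Without TMM the ratio was 0.396 with a p of 0.1 in the same exact test. WT cells averaged 44.0 CPM at 24 h and 38.6 CPM at 72 h. The tagged GFP-PKP4 sequence was counted 3 to 112 times in each of the 6 libraries and 14 to 113 times in the WT libraries in HCM. In the Rescue libraries in HCM it was counted 3380 to 8768 times. Keratinocyte markers summed to 44010 to 52770 CPM at 24 h and 62480 to 68080 CPM at 72 h, while their share of all counts went from 4.32 to 5.89% to 3.01 to 3.72%. Markers of other cells were low at both times: fibroblast markers summed to 3.03 to 4.44 CPM at 24 h and 0.381 to 2.39 CPM at 72 h with Col3a1, Lum and Thy1 at 0 counts, melanocyte markers to at most 1.31 CPM with Tyr at 0, endothelial markers to at most 5.25 CPM with Cdh5 and Emcn at 0, and immune markers to at most 0.762 CPM with Cd207 at 0.

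Genes of the spinous layer rose in PKP4-KO HCM. All 14 tested genes of the 16 listed were called higher, with a median log2 fold change of 3.57 (2.92 with the length offset and 3.78 without library 3), and their share of all counts went from 0.792 to 1.15% at 24 h to 3.93 to 4.15% at 72 h. Krt10, the acidic keratin of suprabasal cells (GRCm39 chromosome 11, 99276072 to 99280195, reverse strand), was at 135, 110.2 and 80.9 CPM at 24 h and at 4705, 3986 and 4620 CPM at 72 h, a log2 fold change of 5.35 ± 0.45 (adjusted p = 1e-10). Its partner Krt1 (GRCm39 chromosome 15, 101753861 to 101759229, reverse strand) was at 143, 104 and 82.5 CPM at 24 h and at 3773, 3642 and 3841 CPM at 72 h, a log2 fold change of 5.09 ± 0.55 (adjusted p = 1.06e-08). For both keratins every library at 72 h lay above every library at 24 h. Calml3, a calmodulin-like protein of differentiating epithelia, rose by a log2 fold change of 6.75 ± 0.52, and Lgals7, the galectin of stratified epithelia, by 4.15 ± 0.91. Sbsn, Dmkn and Krtdap, short secreted proteins of the suprabasal layers that lie side by side in the genome, rose by 3.63, 3.59 and 3.56. Krt2 and Krt77, keratins of the upper layers, did not pass the filter on low counts, and the counts of Krt2 gave a ratio of 29.2 (95% counting interval 9.2 to 148).

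Genes of the cornified envelope rose with them. Of 55 tested genes of the 56 listed 54 were called higher and none lower, with a median of 3.93 (51 higher and a median of 3.20 with the length offset, 54 higher and 1 lower without library 3), and their share of counts went from 0.285 to 0.360% to 2.07 to 2.66%. Most are encoded in the epidermal differentiation complex, a cluster of small genes on chromosome 3 (GRCm39 90416091 to 93474510) with 75 protein-coding genes, of which 66 were tested. Of these, 57 rose and none fell, with a median of 3.70. With the length offset 52 rose, 2 fell and the median was 2.60. Without library 3 the counts were 62 and 1 of 67, and with any 1 of the 6 libraries left out 54 to 62 rose. The 2 that were lower with the offset were S100a10, an annexin A2 partner that was also lower without TMM (-0.79), and Smcp, a sperm protein.

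Promoters of some members of the complex are shown because they carry the same short motif. The AP-1 motif TGANTCA, which reads the same on both strands, was searched for in 300 bases from 250 before to 50 after each start in RefSeq (GRCm38.p6), and is in capitals below. Loricrin is Lor, the main protein of the envelope by mass, at chr3:92083093-92083392 on the reverse strand, Sprr1a is at chr3:92485832-92486131 on the reverse strand, and Sprr2d is at chr3:92338890-92339189 on the forward strand. Sprr1a and Sprr2d encode small proline-rich proteins that bridge envelope components.
Lor: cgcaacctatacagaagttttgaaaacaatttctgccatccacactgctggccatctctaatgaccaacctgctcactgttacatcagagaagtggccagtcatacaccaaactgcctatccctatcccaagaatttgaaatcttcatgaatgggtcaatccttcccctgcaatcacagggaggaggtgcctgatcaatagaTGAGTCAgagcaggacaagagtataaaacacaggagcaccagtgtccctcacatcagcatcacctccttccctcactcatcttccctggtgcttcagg
Sprr1a: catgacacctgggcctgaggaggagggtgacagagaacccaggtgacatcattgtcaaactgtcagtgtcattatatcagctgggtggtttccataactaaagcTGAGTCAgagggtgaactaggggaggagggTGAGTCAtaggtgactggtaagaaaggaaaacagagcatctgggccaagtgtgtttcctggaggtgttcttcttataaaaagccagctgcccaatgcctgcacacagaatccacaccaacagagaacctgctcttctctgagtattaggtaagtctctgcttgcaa
Sprr2d: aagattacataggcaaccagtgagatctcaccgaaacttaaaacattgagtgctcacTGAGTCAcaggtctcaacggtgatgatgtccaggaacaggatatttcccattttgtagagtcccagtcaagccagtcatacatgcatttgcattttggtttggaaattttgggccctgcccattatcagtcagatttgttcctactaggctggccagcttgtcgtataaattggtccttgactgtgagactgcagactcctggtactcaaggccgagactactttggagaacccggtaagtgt

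The window held the motif in 7.81% of all 32851 promoters and for 6.81% of the 10299 tested genes with a promoter, 9.87% of genes called higher and 4.97% of genes called lower. It was found for 20 of 59 protein-coding genes of the complex (33.9%), 9 of 14 Sprr genes (64.3%) and 5 of 7 S100-fused genes (71.4%). For Lce1 and Lce3 genes the counts were 0 of 13 and 0 of 6. Among other lists it was found for 7 of 23 matrix and protease genes (30.4%), 7 of 21 interferon response genes (33.3%) and 0 of 38 cell cycle genes. These are counts of letters in a window and no measure of binding.

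Sprr1a was at 202, 159 and 265 CPM at 24 h and at 12710, 10850 and 7943 CPM at 72 h, and the log2 fold change was 5.66 ± 0.39 (adjusted p = 1.4e-12). Sprr2d was at 11.1, 5.69 and 14.5 CPM at 24 h and at 1128, 840.1 and 496 CPM at 72 h, a change of 6.30 ± 0.58 (adjusted p = 5.99e-10). The groups were far apart for both genes. All 15 tested Sprr genes rose, with a median of 4.68 (14 called and a median of 3.38 with the length offset, and 15 and 5.09 without library 3). Sprr2b (GRCm39 chromosome 3, 92223927 to 92225444, forward strand) had the largest change among them, 7.83 ± 0.72 (adjusted p = 5.08e-10), at 5.13, 3.096 and 9.75 CPM at 24 h and at 1591, 1424 and 1018 CPM at 72 h. The Sprr2 genes are near copies of each other, and how reads were split between copies is uncertain.

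The late envelope genes Lce1 and Lce3 rose as families, all 14 tested Lce1 genes with a median of 3.32 (12 called and 1.91 with the offset) and all 6 tested Lce3 genes with a median of 4.09 (2.49 with the offset). The Lce1 genes were low, summing to 9.62 to 26.0 CPM at 24 h and 117.9 to 125.9 CPM at 72 h. The Sprr genes summed to 1886 to 2559 CPM and 29950 to 39450 CPM. Lor was at 3.36, 2.59 and 2.66 CPM at 24 h and at 41.9, 35.5 and 43.95 CPM at 72 h, a change of 3.81 ± 0.41 (adjusted p = 9.27e-09). Flg, whose product filaggrin bundles keratins, rose by 4.34 ± 0.75 and Ivl, an early envelope protein, by 2.11 ± 0.29. Of the S100-fused genes, which join an S100 domain to long repeats, 5 of 6 tested rose (4 higher and 1 lower without library 3). Crnn, cornulin, was at 0.140, 0.0418 and 0.0739 CPM at 24 h and at 22.5, 25.7 and 18.96 CPM at 72 h, a change of 7.93 ± 0.70 (adjusted p = 2.78e-10), and Hrnr, at 0 counts in the 3 libraries at 24 h, was at least 34.2-fold higher at 72 h by a floor of 3 counts. Of the 12 tested S100 genes of the complex 6 rose, and 5 to 10 with any 1 of the 6 libraries left out (10 without library 3). With the length offset 5 were higher and 1 lower. Tgm1, the transglutaminase that crosslinks the envelope at the membrane, was at 17.99, 12.4 and 13.7 CPM at 24 h and at 592, 471 and 365 CPM at 72 h, a change of 5.01 ± 0.24 (adjusted p = 9.45e-16), and Tgm3 and Tgm5 rose by 4.04 and 4.69. Cnfn, cornifelin, rose by 6.33 ± 0.61 and Cdsn, corneodesmosin, by 4.80 ± 0.23. The proteases Asprv1 and Casp14, which act on filaggrin, rose by 4.80 and 3.60.

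**Figure D2:**
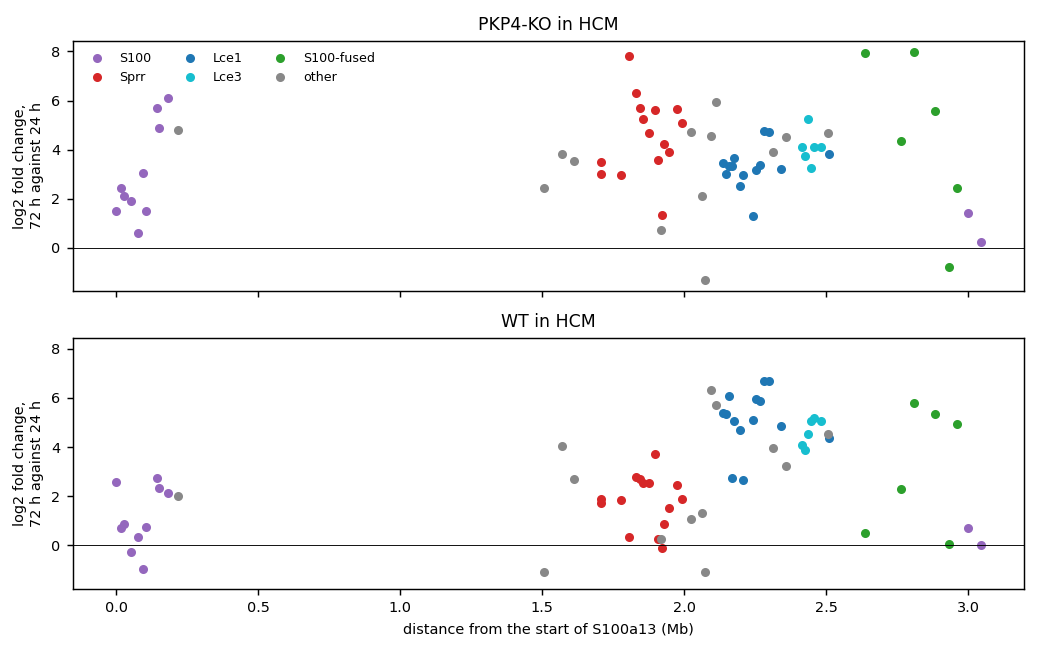
Log2 fold change of 72 h over 24 h (y axis) of the tested genes of the epidermal differentiation complex against distance from the start of S100a13 in Mb (x axis), in PKP4-KO HCM above and WT HCM below, coloured by family. In PKP4-KO the Sprr genes (median 4.68) lie above the Lce1 genes (median 3.32), and in WT the Lce1 genes (median 5.21) lie above the Sprr genes (median 1.86).

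The proteases and inhibitors of shedding rose together. Of 18 tested genes of the 19 listed 16 were called higher and none lower, with a median of 5.15, 4.75 with the length offset and 5.42 without library 3. Klk5, the kallikrein at the head of the cascade (GRCm39 chromosome 7, 43491395 to 43500605, forward strand), was at 1.398, 1.51 and 2.96 CPM at 24 h and at 154, 146 and 129.7 CPM at 72 h, a change of 6.23 ± 0.41 (adjusted p = 7.41e-13). Klk7 and Klk14, which cut corneodesmosomes, rose by 5.18 ± 0.35 and 5.67 ± 0.29, and Klk11 by 6.55 ± 0.70. Among the inhibitors Serpinb3a rose by 6.40 ± 0.46, Spink12 by 6.05 ± 0.67 and Slpi by 5.31 ± 0.38. Spink5, the inhibitor of KLK5 and KLK7, was at 148, 125 and 59.7 CPM at 24 h and at 160.2, 156 and 115 CPM at 72 h and was not called (0.37 ± 0.41, adjusted p = 0.458). Serpinb5 was not called either (0.31 ± 0.14, and -0.77 without TMM).

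Of the 25 genes of barrier lipid synthesis 24 rose and 1 fell, with a median of 2.85 (2.76 with the offset, 2.83 without library 3). Alox12b, the first lipoxygenase of acylceramide processing (GRCm39 chromosome 11, 69041472 to 69060618, forward strand), was at 2.004, 2.47 and 2.29 CPM at 24 h and at 189, 128 and 96.4 CPM at 72 h, a change of 5.93 ± 0.34 (adjusted p = 3.31e-14), and its partner Aloxe3 rose by 4.21 ± 0.23. Sult2b1, which sulfates cholesterol, was at 10.5, 9.16 and 8.27 CPM at 24 h and at 433, 393 and 281 CPM at 72 h, a change of 5.31 ± 0.21 (adjusted p = 4.1e-17). Neither gene's groups overlapped. The ceramidase Acer1 rose by 5.52, the omega-hydroxylase Cyp4f39 by 5.09, the acylceramide synthase Pnpla1 by 4.46, the elongase Elovl4 by 2.85 and the lipid transporter Abca12 by 1.29. The 1 that fell was Lipn, a lipase, whose few counts gave a 23.2-fold lower ratio (95% counting interval 4.0 to 932).

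Of 29 keratinocyte transcription factors 14 rose and 6 fell, with a median of 0.54 (16, 6 and 0.75 with the length offset, and 14, 8 and 0.66 without library 3). Without TMM 8 were higher and 14 lower, with a median of -0.50. Those that rose included Hopx (3.46 ± 0.17), Ovol1 (2.50 ± 0.16), Elf3 (2.39 ± 0.16), Grhl1 (2.25 ± 0.21), Zfp750 (2.05 ± 0.15) and Klf4 (1.33 ± 0.21), regulators of terminal differentiation and the barrier. Trp63, the p63 gene of the basal layer, was at 184, 249.5 and 131 CPM at 24 h and at 62.4, 53.2 and 62.4 CPM at 72 h and fell (log2 fold change -1.66 ± 0.28, adjusted p = 1.71e-05). Ovol2 and Sox2 had changes of -1.76 and -2.10. The grainyhead factors thus split, with Grhl1 higher and Grhl2 lower at -1.14 ± 0.24. Cebpb (-2.49 ± 1.14, adjusted p = 0.0652) was not called.

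Most genes of basal adhesion fell. Of 14 basal and hemidesmosome genes 10 were called lower and 2 higher, with a median of -1.19 (9 lower, 0 higher and -0.74 with the offset, 10 lower, 1 higher and -1.19 without library 3). Itga6, the integrin chain that pairs with beta 4 in hemidesmosomes (GRCm39 chromosome 2, 71575960 to 71689757, forward strand), was at 117, 139 and 90.8 CPM at 24 h and at 29.7, 27.8 and 29.4 CPM at 72 h, a change of -1.99 ± 0.32 (adjusted p = 7.43e-06), and the groups did not overlap. The plakin Dst changed by -1.98 ± 0.35, Col17a1 by -1.23 ± 0.13 and Itgb1 by -1.42 ± 0.24. The laminin chain genes Lama3 and Lamb3 changed by -1.53 and -1.68. The basal keratins went another way: Krt5 was not called (-0.29 ± 0.18, adjusted p = 0.176), and Krt14 was called higher (0.57 ± 0.15, adjusted p = 0.00198), was not called with the length offset (0.09) and was lower without TMM (-0.51). The share of all counts taken by the list was 4.10 to 5.65% at 24 h and 2.51 to 3.20% at 72 h, while its summed level went up, from 41730 to 50630 CPM to 52080 to 58720 CPM.

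Desmosomal genes, whose proteins anchor keratins at cell-cell contacts and to which plakophilins belong, rose in 9 of 13 cases and fell in none, with a median of 1.41 (1.78 with the offset, and 9, 0 and 1.40 without library 3). Without TMM 5 were higher and 2 lower. Dsc2 was at 0.513, 0.293 and 0.0739 CPM at 24 h and at 8.64, 7.56 and 4.997 CPM at 72 h, a change of 4.45 ± 0.50 (adjusted p = 2.77e-08). The cadherins of the upper layers Dsc1 (3.73 ± 0.62), Dsg1a (2.07 ± 0.38) and Dsg1b (2.45 ± 0.37) rose, and so did the plakophilins Pkp2 (2.88 ± 0.45) and Pkp1 (1.41 ± 0.12). The basal cadherins Dsg3 (-0.51 ± 0.26) and Dsc3 (-0.62 ± 0.38), Dsg2 (-1.49 ± 1.13) and the plakin Dsp (0.25 ± 0.31) were not called. Among 17 tested tight junction genes of 22 listed 10 rose and 1 fell, with a median of 0.74 (12, 1 and 0.87 with the offset, and 9, 1 and 0.69 without library 3). Without TMM 5 were higher and 5 lower, with a median of -0.33. Cldn4, a sealing claudin, was at 13.7, 12.1 and 12.04 CPM at 24 h and at 211, 154 and 142 CPM at 72 h, a change of 3.74 ± 0.19 (adjusted p = 3.43e-15). Cldn23 (4.62 ± 0.38), the junction adaptor Cgn (2.91 ± 0.26) and Cldn1 (1.41 ± 0.20) rose, Patj, a polarity scaffold, fell (-1.34 ± 0.18), and Tjp1, the scaffold ZO-1, was not called (0.00 ± 0.27) but was higher with the length offset (0.59).

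Adherens junction genes were divided, with 3 of 17 higher and 8 lower and a median of -0.48 (5, 5 and -0.02 with the offset, and 4, 8 and -0.50 without library 3). Nectin4 rose by 2.57 ± 0.25 and Ablim1, an actin-binding LIM protein, by 1.72 ± 0.15. Ctnnal1, the alpha-catulin gene, was at 78.7, 90.3 and 59.2 CPM at 24 h and at 13.5, 10.8 and 12.04 CPM at 72 h, a change of -2.65 ± 0.27 (adjusted p = 5.18e-09). P-cadherin, Cdh3, changed by -1.37 ± 0.14, and the catenins Ctnnb1 and Ctnna1 by -0.97 and -0.62. E-cadherin, Cdh1 (-0.34 ± 0.18, adjusted p = 0.104), and p120 catenin, Ctnnd1 (0.21 ± 0.31, and -0.82 without TMM), were not called.

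Among 25 tested of 29 listed actin genes and targets of serum response factor 9 rose and 9 fell, with a median of -0.16 (10, 8 and 0.12 with the offset, and 9, 9 and -0.15 without library 3). Without TMM 3 were higher and 17 lower. The calponins Cnn2 and Cnn3 rose by 3.98 and 2.16 and cytoplasmic gamma actin, Actg1, by 2.50 ± 0.22, while the tropomyosin Tpm1 and talin, Tln1, had changes of -1.34 and -1.23 and Srf one of -0.90. Beta actin, Actb, was not called (0.84 ± 0.60). Actomyosin contraction draws on the actin belt that these junctions hold, and single genes of it are given by their own values. Myh14, a nonmuscle myosin heavy chain of epithelia, rose by 2.73 ± 0.28, and the GTPase Rhob by 1.17 ± 0.15. The GTPase exchange factor Ect2 (-2.47 ± 0.49), the kinase Rock2 (-1.59 ± 0.46) and the phosphatase subunit Ppp1r12a (-1.86 ± 0.33) fell. Rhoa (-0.11 ± 0.10), Cdc42 (-0.14 ± 0.12) and the GTPase-activating gene Arhgap23 (-0.24 ± 0.15) were not called, and with the length offset Rhoa was called higher (0.47).

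**Figure D3:**
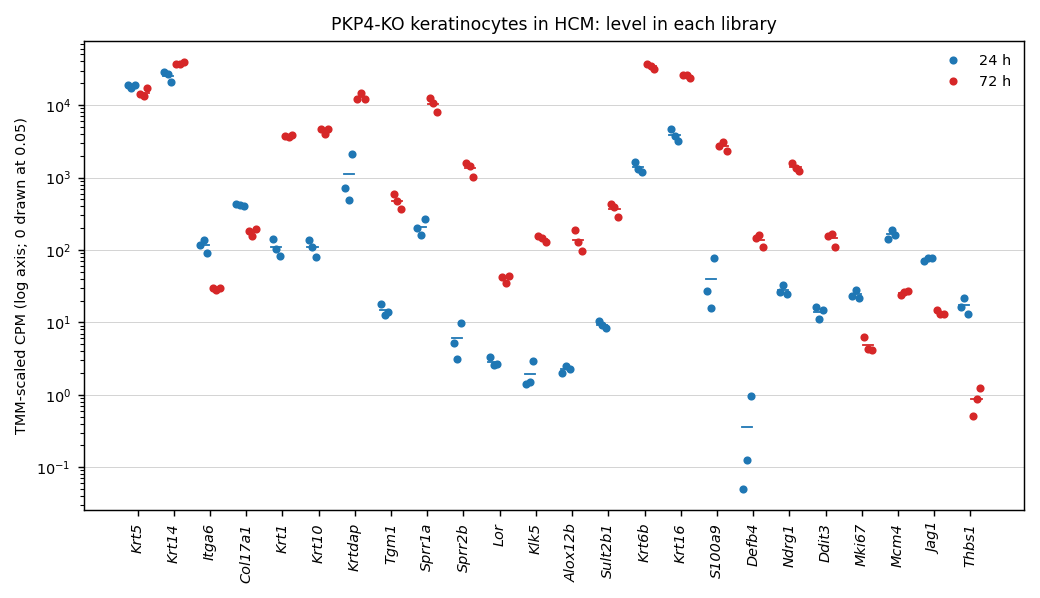
Level of 24 genes in each of the 6 PKP4-KO HCM libraries (TMM-scaled CPM, log axis, a level of 0 drawn at 0.05), with libraries at 24 h in blue, at 72 h in red and group means as lines. Suprabasal, envelope, protease and lipid genes such as Krt10, Sprr2b, Klk5 and Alox12b are higher at 72 h in all 3 libraries, and Itga6, Mki67, Mcm4, Jag1 and Thbs1 are lower.

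Genes of the cell cycle fell. Of 50 genes 47 were called lower and none higher, with a median of -1.60 (42 lower and -1.41 with the offset, 46 lower and -1.68 without library 3). Their summed level went from 7967 to 8767 CPM to 3147 to 3603 CPM. Mcm4, a subunit of the replicative helicase (GRCm39 chromosome 16, 15440211 to 15455264, reverse strand), was at 144, 187 and 160.5 CPM at 24 h and at 23.8, 26.3 and 27.4 CPM at 72 h, a change of -2.67 ± 0.17 (adjusted p = 1.93e-13). Cdc6, which loads that helicase, changed by -2.76 ± 0.23, and Kif11, the spindle kinesin, by -2.34 ± 0.41. Mki67, the proliferation marker, was at 23.2, 28.3 and 21.4 CPM at 24 h and at 6.22, 4.22 and 4.09 CPM at 72 h, a change of -2.33 ± 0.43 (adjusted p = 5.39e-05). The libraries of the times were well apart for both Mcm4 and Mki67. E2f2, Gins2 and Ube2c were the 3 that were not called, with 0.11 ± 0.26, -0.37 ± 0.21 and -0.46 ± 0.22, and E2f2 was at -0.95 without TMM. In the window around the start, the letters TTTGAA of the cell cycle homology region, on either strand, were found for 17 of 38 genes of the list (44.7%) and for 14.9% of tested genes.

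Of 25 inhibitors of cyclin-dependent kinases and p53 targets 5 rose and 8 fell, with a median of -0.42 (2, 10 and -0.39 with the offset, and 5, 9 and -0.50 without library 3). The shares of 20.0% higher and 32.0% lower were near the 24.3% and 31.4% of all tested genes. Cdkn1a, p21, rose by 1.54 ± 0.27 and Cdkn2a, the p16 and p19ARF locus, by 1.46 ± 0.42 (0.57 and not called with the length offset), while the p53 targets Trp53inp1 and Sesn1 had changes of -1.69 and -1.46. Trp53 (-0.47 ± 0.25) and Mdm2 (-0.42 ± 0.23) were not called.

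Genes of glycolysis and the hypoxia response rose in 22 of 26 tested cases (27 listed) and fell in none, with a median of 1.18 (21 higher and 1.62 with the offset, 20 higher and 1.12 without library 3). Without TMM 9 were higher and 7 lower, with a median of 0.11. Ndrg1, a stress gene induced by hypoxia (GRCm39 chromosome 15, 66801166 to 66841835, reverse strand), was at 26.4, 32.4 and 24.9 CPM at 24 h and at 1610, 1343 and 1215 CPM at 72 h, a change of 5.64 ± 0.20 (adjusted p = 4.74e-18). Ankrd37, a target of hypoxia-inducible factor, was at 4.19, 3.05 and 5.69 CPM at 24 h and at 180.2, 213 and 142 CPM at 72 h, a change of 5.39 ± 0.45 (adjusted p = 7.32e-11). Its promoter (chr8:45999801-46000100, GRCm38.p6, reverse strand) is shown because it holds the core of the hypoxia response element, ACGTG, at 2 places, in capitals.
Ankrd37: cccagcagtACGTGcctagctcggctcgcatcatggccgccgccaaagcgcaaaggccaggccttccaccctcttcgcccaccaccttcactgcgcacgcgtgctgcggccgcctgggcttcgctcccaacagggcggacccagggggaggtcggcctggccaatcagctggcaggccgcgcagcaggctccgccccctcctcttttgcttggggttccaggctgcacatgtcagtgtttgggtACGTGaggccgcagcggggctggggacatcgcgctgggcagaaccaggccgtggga

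On either strand the core, which also lies inside the E-box CACGTG, was found for 18 of 26 genes of the list (69.2%), against 28.8% of tested genes and 19.6% of all promoters. The peptide gene Adm rose by 4.97 ± 0.59, Egln3, the hydroxylase that marks hypoxia-inducible factor for decay, by 4.84 ± 0.22, and the mitophagy receptor Bnip3 by 3.55 ± 0.26. The glycolytic genes Hk1 and Aldoa rose by 2.43 and 1.70, and Gapdh (2.05, adjusted p = 0.0817) and Car9 (0.03 ± 0.96) were not called. Ndufa4l2, a further hypoxia target outside the list, was among the 10 largest increases of well-expressed genes (protein-coding genes that averaged at least 5 CPM over the 6 libraries and whose groups did not overlap), at 0.746, 0.669 and 1.92 CPM at 24 h and at 305, 269.8 and 180.4 CPM at 72 h (7.91 ± 0.63, adjusted p = 3.43e-11).

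Cholesterol synthesis rose in 15 of 24 genes and fell in none, with a median of 1.09 (21, 0 and 1.29 with the offset, and 14, 0 and 0.97 without library 3). Without TMM 6 were higher and 5 lower, with a median of 0.03. Mvd rose by 3.05 ± 0.17, Pmvk by 2.39 ± 0.35 and Fdft1, squalene synthase, by 2.23 ± 0.15, whereas the synthase Hmgcs1 (-0.03 ± 0.27) and the regulator Srebf2 (0.08 ± 0.12, and -0.99 without TMM) were not called. Of 23 stress response genes 14 rose and 6 fell, with a median of 0.82 (13, 5 and 0.55 with the offset, and 13, 6 and 0.86 without library 3). Without TMM 8 were higher and 10 lower, with a median of -0.25. Ddit3, the CHOP factor of the integrated stress response, was at 16.3, 11.1 and 14.8 CPM at 24 h and at 157, 165 and 111 CPM at 72 h, a change of 3.36 ± 0.27 (adjusted p = 4.48e-11). Nupr1 (4.29 ± 0.51), Trib3 (2.65 ± 0.19), Chac1 (2.41 ± 0.20) and Atf4 (1.56 ± 0.18) of the same pathway rose, as did Hmox1, haem oxygenase (2.76 ± 0.21). The chaperone Hsp90b1 and the thioredoxin reductase Txnrd1 had changes of -1.28 and -2.52, and the chaperone Hspa5 was not called (-0.26 ± 0.20).

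Alarmins and cytokines rose in 19 of 31 tested genes (35 listed) and fell in 3, with a median of 1.88 (1.62 with the offset, and 20 higher, 2 lower and 2.82 without library 3). Their summed level went from 566.8 to 817 CPM to 5016 to 6572 CPM. S100a9, a subunit of calprotectin (GRCm39 chromosome 3, 90599931 to 90603071, reverse strand), was at 26.7, 15.6 and 76.8 CPM at 24 h and at 2734, 3127 and 2322 CPM at 72 h, a change of 6.11 ± 0.95 (adjusted p = 4.87e-06), and its partner S100a8 rose by 4.90 ± 1.12. Tslp, the epithelial cytokine of type 2 immunity, was at 2.38, 2.26 and 3.47 CPM at 24 h and at 173, 177 and 108 CPM at 72 h, a change of 5.84 ± 0.40 (adjusted p = 1.59e-12). Il36a (4.87 ± 0.45), Il18 (4.69 ± 0.39), Il33 (3.09 ± 0.24) and the antagonist Il1rn (3.33 ± 0.18) rose, as did the chemokine Ccl20 (3.30 ± 0.50), while the neutrophil chemokine Cxcl5 fell (-3.13 ± 0.28). The defensin Defb4 had the largest increase of any well-expressed gene, at 0, 0.126 and 0.960 CPM at 24 h and at 145, 162 and 108 CPM at 72 h (8.86 ± 1.09, adjusted p = 1.28e-07), and Defb3 rose by 7.10 ± 1.07. Immune cell markers, of which Cd207 was at 0, did not exceed 0.762 CPM in any of the 6 libraries.

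The EGF family signals to keratinocytes through Egfr and its relatives. Of 12 tested ligands and receptors (13 listed) 7 rose and 2 fell, with a median of 0.86 (9, 0 and 1.08 with the offset, and 7, 1 and 0.74 without library 3). Without TMM 3 were higher and 4 lower, with a median of -0.23. The ligands Areg (1.99 ± 0.29), Tgfa (1.74 ± 0.21) and Epgn (1.67 ± 0.23) and the receptor Erbb3 (1.78 ± 0.17) rose, and the ligand Nrg1 (-1.07 ± 0.14) and Egfr (-0.44 ± 0.19, adjusted p = 0.0497) fell, though Egfr was at 0.27 and not called with the length offset and was not called when any 1 of the 6 libraries was left out. Genes of Notch signalling, which drives the move from the basal to the spinous layer, were mostly lower. Of 13 tested genes (19 listed) 2 were higher and 9 lower, with a median of -1.10 (3, 7 and -0.67 with the offset, and 3, 8 and -1.27 without library 3). The ligand Jag1 (GRCm39 chromosome 2, 136923373 to 136958693, reverse strand) was at 69.7, 76.98 and 76.4 CPM at 24 h and at 14.99, 13.2 and 13.1 CPM at 72 h, a change of -2.43 ± 0.30 (adjusted p = 1.52e-07). The ligands Dll1 and Jag2 had changes of -2.44 and -1.37, the receptor Notch1 -1.42, the modifier Lfng -1.65 and the target Hes1 -0.76. Notch3 rose (2.16 ± 0.26), and Notch2 was not called (0.45 ± 0.25, and -0.59 without TMM). Hes1 lost its call without 72 h library 1 (-0.73) or 3 (-0.72) or 24 h library 2 (-0.59).

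Of 27 tested matrix and protease genes (31 listed) 5 rose and 15 fell, with a median of -1.06 (3, 11 and -0.76 with the offset, and 5, 12 and -0.82 of 28 without library 3). Thbs1, thrombospondin, was at 16.4, 21.8 and 13.1 CPM at 24 h and at 0.508, 0.872 and 1.25 CPM at 72 h, a change of -4.26 ± 0.58 (adjusted p = 6.03e-07), the largest decrease of a well-expressed gene but for Txnip (-4.47 ± 0.46). The anchoring fibril collagen Col7a1 and the inhibitor Timp3 had changes of -1.79 and -1.96. Of 16 tested genes of epithelial-mesenchymal transition (19 listed) 6 fell and none rose (4 and none with the offset, and 6 lower but 3 higher of 17 without library 3). Those that fell included Snai2 (-0.96 ± 0.21), Itgav (-1.74 ± 0.41) and Itgb6 (-0.94 ± 0.21). The share of this list that fell, 37.5%, was near the 31.4% of all tested genes, of which 24.3% rose. Only 12 of 30 interferon response genes passed the filter, and 4 of them rose and 3 fell, with a median of 0.17 (4, 3 and 0.05 with the offset, 4, 4 and -0.07 without library 3, and 1, 5 and -0.85 without TMM). Stat2 and Ifi27 rose (1.49 and 1.79), and Irf1 fell (-1.09).

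Other genes with large changes fell outside the lists. Among the 10 highest were Hsd17b2 (7.51 ± 0.73), a steroid dehydrogenase, the claudin Cldn17 (7.44 ± 0.66), Asb2 (7.05 ± 0.53), Wfdc12 (6.98 ± 0.71), a secreted inhibitor of the whey acidic protein type, and 2610528A11Rik (7.23 ± 0.57). Among the 10 lowest were the scavenging receptor Ackr3 (-3.50 ± 0.31), Dtl (-3.29 ± 0.32), which targets replication factors for decay, the condensin subunit Smc2 (-3.18 ± 0.64), the kinesin Kif15 (-3.08 ± 0.45), the factor Sox21 (-3.23 ± 0.51), Prkar2b (-3.06 ± 0.34), a kinase regulatory subunit, and Cyp26b1 (-3.05 ± 0.20), which degrades retinoic acid. For each of these genes the 3 libraries at 72 h lay on 1 side of the 3 at 24 h.

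**Figure D4:**
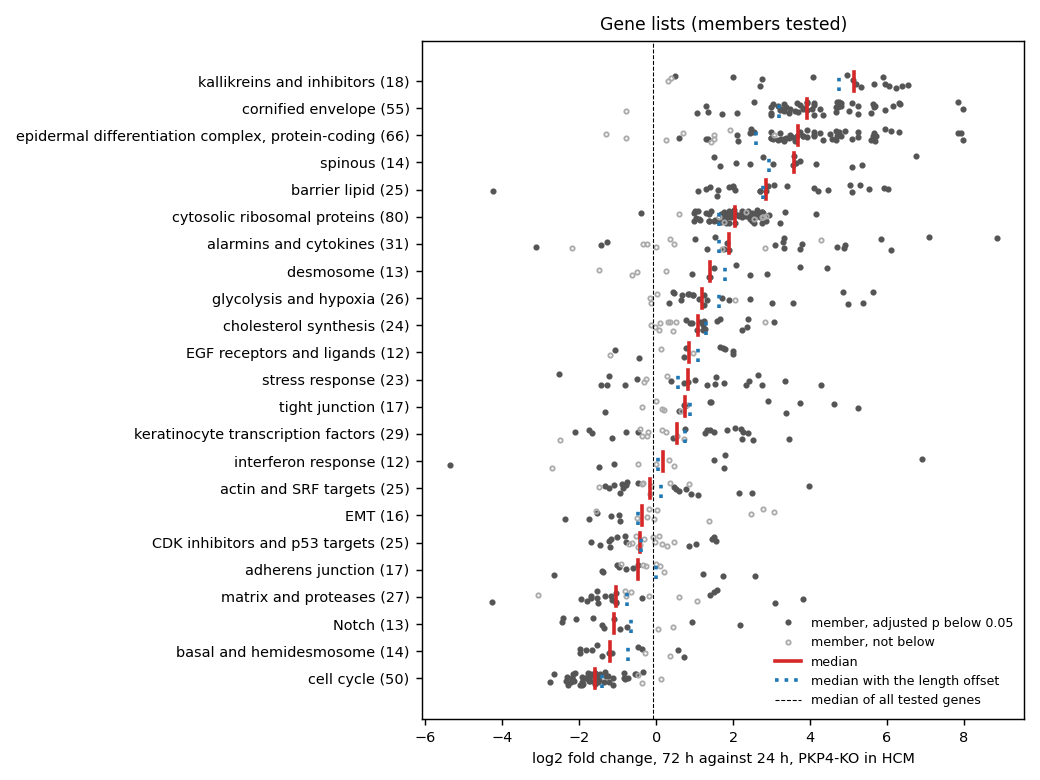
Log2 fold change of 72 h over 24 h (x axis) of every tested member of each list in PKP4-KO HCM, filled where called, with the list median in red, the median with the length offset as a dotted blue line and the median of all tested genes as a dashed line. Spinous, cornified, kallikrein and barrier lipid lists lie right of the median gene (medians 3.57, 3.93, 5.15 and 2.85), and cell cycle, basal and Notch lists left of it (-1.60, -1.19 and -1.10).

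The 10 protein-coding genes with the most counts at 72 h took 8.73% ± 1.05 (SD, n = 3) of all counts at 24 h and 13.98% ± 0.41 at 72 h, a change that choosing them at 72 h favours. The 10 with the most counts at 24 h took 11.94% ± 1.39 and 11.57% ± 0.59. The genes ranked at 72 h were the keratins Krt6a, Krt14, Krt6b, Krt16 and Krt17, Lgals7, the fatty acid carrier Fabp5, the elongation factor Eef1a1 and the ribosomal proteins Rplp0 and Rplp1. Krt6b, a keratin of wounded and hyperproliferative epidermis (GRCm39 chromosome 15, 101584458 to 101588722, reverse strand), was at 1617, 1312 and 1205 CPM at 24 h and at 37440, 34870 and 31750 CPM at 72 h, a change of 4.65 ± 0.22 (adjusted p = 9.45e-16), and its partner Krt16 rose by 2.71 ± 0.17. Krt6a rose by 1.66 ± 0.13 and Krt17 by 1.26 ± 0.15, and Fabp5 by 4.10 ± 0.41. Eef1a1 was called higher (0.92 ± 0.12) but was not called without TMM, where its value was -0.16.

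Cytosolic ribosomal protein genes, which are short, rose in 71 of 80 tested cases (83 listed), with a median of 2.04 (69 and 1.63 with the offset, 79 and 2.49 without library 3). Without 24 h library 1 or 2 these genes rose in 59 and 58 cases, with medians of 1.97 and 1.78. Their share of counts went from 11.5 to 18.8% at 24 h to 27.0 to 29.3% at 72 h. The 1 called lower was Rpl7l1, and Rps27 and Rpl36a rose by 3.34 ± 1.03 and 2.93 ± 0.85. Processed copies of these genes are common, and how reads were split between them is uncertain. In Rescue HCM none of the 80 was called higher, and the difference between the time effects of PKP4-KO and Rescue was called higher for 65. In WT HCM 21 and in PKP4-KO LCM 20 rose, and the difference in time effect was called higher for 8 against WT and for 4 against PKP4-KO LCM. Of all tested genes 13.6% were called higher in Rescue HCM, 9.16% in WT HCM and 12.4% in PKP4-KO LCM. The differences from these settings were called higher for 20.1%, 10.8% and 4.45% of all tested genes.

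The same culture time was also sampled in WT HCM, Rescue HCM and PKP4-KO LCM, where 2697 (17.8%), 3676 (24.3%) and 3952 (26.1%) genes were called. In that order 9.16%, 13.6% and 12.4% of tested genes were called higher and 8.69%, 10.7% and 13.7% lower. Counts of list members in these settings are read against those shares. The difference between the time effects was tested as an interaction in the same model, in which the PKP4-KO HCM libraries enter every difference. The effect in PKP4-KO HCM differed from that in WT HCM for 4018 genes (26.6%), 1628 (10.8%) more positive and 2390 (15.8%) more negative in PKP4-KO. It differed from Rescue HCM for 7130 (47.2%), 3032 (20.1%) and 4098 (27.1%), and from PKP4-KO LCM for 1667 (11.0%), 672 (4.45%) more positive and 995 (6.58%) more negative in HCM. These counts moved with the scaling, and without TMM the split from WT was 715 and 6613. The difference from WT also moved with single WT HCM libraries. At 72 h WT library 3 had a TMM factor of 0.705 and a correlation of relative level and length of -0.402. WT libraries 1 and 2 at 72 h had factors of 0.959 and 0.980 and correlations of -0.0048 and 0.0933. Without WT 72 h library 3 the difference was called for 4920 genes, and without WT 24 h library 2 for 3155.

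For spinous genes the time effect was more positive in PKP4-KO than in WT for 13 of 14 members (14 with the length offset) and more negative for none, with medians of 3.57 in PKP4-KO and 0.89 in WT. For Krt1 the log2 fold change was 2.55 ± 0.50 in WT, 0.06 ± 0.47 in Rescue and 4.18 ± 0.52 in PKP4-KO LCM, and the difference of PKP4-KO from WT was 2.55 ± 0.67 (adjusted p = 0.00527). For Krt10 that difference was 1.96 ± 0.54 (adjusted p = 0.00696). Barrier lipid genes had a more positive effect for 24 of 25 members than in WT and for 23 than in Rescue, with the same counts under the length offset and medians of 0.53 in WT and 0.45 in Rescue. Kallikreins and inhibitors had a more positive effect for 14 of 18 than in WT and for 15 than in Rescue, where 13 (median 2.51) and 12 (median 1.47) rose themselves. With the length offset 15 were more positive and 2 more negative than in WT, and 16 more positive than in Rescue. Of the 55 cornified genes 43 rose in WT (median 2.74), and the effect in PKP4-KO was more positive for 21 and more negative for 8 (22 and 14 with the length offset). For Sult2b1 the log2 fold change was 0.44 ± 0.17 in WT, and the difference was 4.86 ± 0.26 (adjusted p = 9.7e-14). Desmosomal genes had a more positive effect than in WT for 9 of 13 members (11 with the offset), and none of the 13 was called higher in WT itself.

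Inside the differentiation complex the families parted. The effect was more positive in PKP4-KO than in WT for 12 of 15 Sprr genes and more negative for none, with a WT median of 1.86, and 12 also differed with the length offset. It was less positive for 7 of 14 Lce1 genes and more positive for none, with a WT median of 5.21, and 10 were less positive with the offset. For Sprr2b the value in WT was 0.32 ± 0.57, a difference of 7.51 ± 0.86 (adjusted p = 1.29e-07), and Lce1g rose by 5.09 ± 0.40 in WT against 1.30 ± 0.38 in PKP4-KO, a difference of -3.79 ± 0.52 (adjusted p = 2.81e-06). Lce1g lost its call in PKP4-KO itself with the length offset (0.25). The Lce1 genes also rose less than in Rescue for 6 of 14. In PKP4-KO HCM the 14 Lce1 genes were low at 24 h, summing to 9.62 to 26.0 CPM.

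For cell cycle genes the effect was more negative than in WT for 38 of 50 members, than in Rescue for 41 and than in PKP4-KO LCM for 21. In those settings themselves 20, 7 and 35 of the 50 were called lower, against 8.69%, 10.7% and 13.7% of all tested genes. For Mki67 the log2 fold change was -0.08 ± 0.38 in WT and 0.44 ± 0.39 in Rescue, and the difference from WT was -2.25 ± 0.58 (adjusted p = 0.00423). Tslp had a value of -0.42 ± 0.37 in WT, a difference of 6.26 ± 0.53 (adjusted p = 4.66e-10). Among genes averaging at least 5 CPM over the 12 libraries, the largest negative differences were those of Dtx4 (-4.74 ± 0.41), Gpsm1 (-4.33 ± 0.63), which was itself not called in PKP4-KO HCM, Lce1g, Ntn4 (-3.74 ± 0.41), a netrin, and Trp73 (-3.70 ± 0.23), the p73 gene. Trp73 fell in PKP4-KO (-2.27 ± 0.16) and rose in WT (1.43 ± 0.16). Notch genes were more negative than in WT for 7 of 13 and more positive for 2, and 3 of them rose in WT. Glycolysis and hypoxia genes also rose in Rescue (20 of 26) and PKP4-KO LCM (22), and the effect was more positive in PKP4-KO HCM than in WT for 13. Ndrg1 had values of -0.06 ± 0.17 in WT, 1.73 ± 0.17 in Rescue and 5.05 ± 0.20 in PKP4-KO LCM. Cholesterol synthesis genes rose in 21 of 24 cases in Rescue, where the effect in PKP4-KO was more positive for 3 and more negative for 8. The direction of that difference did not hold with the length offset, where 8 were more positive and 6 more negative. The median difference was -0.25 without the offset and 0.01 with it.

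The time effect in PKP4-KO cells was also compared between the media. In PKP4-KO LCM 12 of 14 spinous genes, 48 of 55 cornified genes and 20 of 25 barrier lipid genes rose as well, with medians of 2.11, 2.56 and 1.38. The rise was larger in HCM for 4, 24 and 18 of them and smaller for none. For Tgm1 the change was 3.61 ± 0.22 in LCM and the difference 1.40 ± 0.29 (adjusted p = 0.00211), and for Klk5 they were 3.13 ± 0.38 and 3.11 ± 0.52 (adjusted p = 0.000257). Of the 29 transcription factors 1 was more positive and 9 were more negative in HCM, among them Trp63, with -0.02 ± 0.27 in LCM and a difference of -1.64 ± 0.39 (adjusted p = 0.00688).

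**Figure D5:**
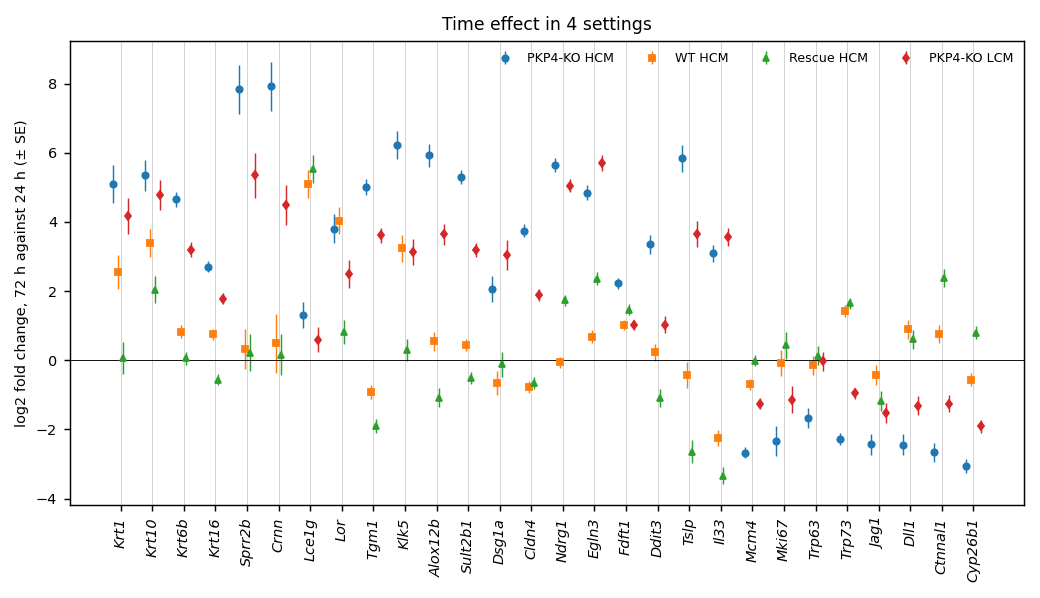
Log2 fold change of 72 h over 24 h ± SE (y axis) of 28 genes (x axis) in PKP4-KO HCM, WT HCM, Rescue HCM and PKP4-KO LCM. Krt1, Krt10, Sprr2b, Crnn and Tslp lie higher in PKP4-KO HCM than in WT HCM, and Lce1g, Trp73, Mcm4 and Mki67 lower.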

How the data were processed

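The deposited values were read counts per gene, not normalized. Per the labels and the study's methods, poly(A) RNA was sequenced strand-specifically, and the authors mapped the read pairs to mm39 plus the tagged PKP4 sequence with HISAT2 2.1.0, dropped secondary alignments with SAMtools 1.10 and assigned reads to Ensembl GRCm39 genes with featureCounts 2.0.0. Whether the counting used strand is not given in the sources used here, so overlapping genes cannot be told apart, and near-identical copies (Sprr2, Lce1, defensins, ribosomal proteins) are uncertain.

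Counts were tested in edgeR 4.0.16 (R 4.3.3, limma 3.58.1): filterByExpr over 12 groups left 15114 of 55358 genes, libraries were scaled by TMM, and 1 quasi-likelihood model of 12 group means over 36 libraries (24 residual degrees of freedom) gave the time effects and their differences. SE is the log2 fold change divided by the square root of F, and p-values were adjusted over all tested genes. The scripts were tested on simulated data. Depth was 13794211 to 20732407 counts in the 6 libraries, and counting intervals of ratios (exact binomial, 95%) and floors of 3 counts cover counting error only.

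The members and gene lists were chosen with earlier results of these data known. The rule for names took Pkp4 and the tagged sequence, the 10 highest and 10 lowest called protein-coding genes that averaged at least 5 CPM with no overlap, the 4 called members of each list with the largest change and its defining members not called, the 10 genes with most counts at 72 h, and the 5 highest and 5 lowest differences from WT. Further members of the lists are named for their roles, chosen after their values were seen, and 1 list and some genes are not reported here. Gene symbols and exon lengths are those of the deposited table, coordinates come from GENCODE on GRCm39 (98.9% of IDs matched), and promoters from RefSeq on GRCm38.p6 by symbol.

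Alternatives were no TMM, upper-quartile scaling, no filter, a minimum of 10 counts and only the groups compared. Others were DESeq2 1.42.0, a replicate block and each library left out. A length offset was added after seeing the data. It was a lowess in each library, with span 0.3, of level relative to the gene's mean over all libraries on log length.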

Additional observations from a re-analysis of the deposited data

Results flagged for a closer look

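The time effect in PKP4-KO HCM differed from that in WT HCM for 4018 genes, from that in Rescue HCM for 7130 and from that in PKP4-KO LCM for 1667, each by the interaction term in edgeR. The same PKP4-KO HCM libraries enter all 3 differences.

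Named genes with the largest differences between PKP4-KO and WT were flagged by the same test. The difference in log2 fold change was 8.40 for Cphx1, a homeobox gene, 7.83 for Pycard, the inflammasome adaptor ASC, 7.51 for Sprr2b, 7.44 for Crnn and 6.26 for Tslp. It was -4.74 for Dtx4, a Deltex family gene, -4.33 for Gpsm1, -3.79 for Lce1g, -3.74 for Ntn4 and -3.70 for Trp73. The call for Cphx1 was lost without either WT 24 h library 1 or 2. For Gpsm1 the time effect in PKP4-KO HCM was itself not called.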

How the results depend on the processing

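For PKP4-KO HCM 6878 to 8462 genes were called under upper-quartile scaling, DESeq2 (4364 higher, 4098 lower), no filter, a minimum of 10 counts (the lowest), only the groups compared and the length offset, and 7042 to 8873 with 1 library left out (the highest without 24 h library 3, the lowest without 24 h library 2). Same-numbered libraries did not deviate together, and the replicate block gave 8358 genes and ended 1 call of a named gene, Egfr (adjusted p = 0.0541 in edgeR). Without TMM 10454 were called, 1315 higher and 9139 lower, of which 6562 were also called with TMM, 497 in the opposite direction. With the length offset 41 of 6191 shared calls were opposite.

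The difference from WT had 7328 calls without TMM and 2089 higher and 2019 lower with DESeq2. The difference between media had 5387 calls without TMM, 1100 with no filter and 818 with only the groups compared, and its split was 1062 to 971 with DESeq2 and 882 to 802 with the length offset. With 1 library left out the counts were 1720 to 2901 in WT (1720 without WT 24 h library 1), 2714 to 3249 in Rescue, 2742 to 4356 in PKP4-KO LCM, 3155 to 4920 for the difference from WT, 6107 to 7825 from Rescue and 932 to 2107 between media. The share of the 50 most abundant genes at 72 h was 35.8%.

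Without TMM 8 transcription factors were higher and 14 lower. In the same order the counts were 5 and 2 for desmosome, 5 and 5 for tight junction, 3 and 17 for actin, 6 and 5 for cholesterol, 9 and 7 for glycolysis and hypoxia, 8 and 10 for stress, 1 and 5 for interferon, 3 and 4 for EGF, 46 and 1 for ribosomal proteins, 2 and 13 for adherens junction, 1 and 19 for cell cycle inhibitors and p53 targets and 0 and 10 for epithelial-mesenchymal transition. With the length offset 5 adherens junction genes were lower. A minimum of 10 counts left 2 interferon, 37 complex (36 protein-coding), 6 Lce1 and 0 S100-fused genes higher, as fewer genes were tested. Only the groups compared gave 3 S100-fused genes, and without 24 h library 3 there were 10 S100 genes. The cause of the other shifts was not tested.

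Without TMM values turned negative for Krt14 (-0.51), Eef1a1 (-0.16), Serpinb5 (-0.77), Ctnnd1 (-0.82), E2f2 (-0.95), Srebf2 (-0.99), Notch2 (-0.59) and S100a10 (-0.79). With the length offset S100a10 was at -0.57, and Tjp1 (0.59), Rhoa (0.47) and Egfr (0.27) were above 0. Genes of few counts, such as Crnn, Dsc2 and Defb4 at 24 h, are measured with the least precision. The calls of Itgb6, Lce1g, Krt14, Ctnna1, Cdkn2a and Nrg1 were lost with the length offset, under which Krt5, Cebpb, Ube2c and Smcp were called lower and Dsp, Srebf2 and Notch2 higher. The call of Rplp1 was lost without 24 h library 1 (1.78) or 2 (1.70). Of 218 gene results checked, 13 gained or lost their call in some fit with 1 library left out. Without TMM 37 changed, of which 14 lost their call, 15 gained a call and 8 changed sign. Only some of the genes behind these counts are named.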
